A study of Mus musculus with 4 samples.

Results

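The MHC class II antigen presentation genes were examined in the liver RNA of mice with diet-induced obesity (DIO) that received galanin-like peptide (GALP) through the nose. The members were the 8 genes H2-Aa, H2-Ab1, H2-Eb1, H2-DMa, H2-DMb1, Cd74, Ciita and Ctss, and every non-control probe that carried 1 of these names in the scanner files was taken. This gave 13 probes on 22 spots of an array, of 41174 probes with 26582 names in all. Male C57BL/6J mice obtained at 8 weeks of age ate a high-fat diet for 14 weeks, weighed at least 40 g, and were given porcine GALP (1 nmol, in saline with 5% α-cyclodextrin) or saline, 2 μL once a day for 11 days. All groups shared the strain, the diet and the obesity. Liver RNA from 4 GALP-treated mice of the greater weight loss group and from 4 of the less weight loss group formed 2 GALP pools, and the control pool came from 8 mice that received saline. Every GALP pool was set against this control on 2 arrays, once with the control in Cy3 and once with it in Cy5, so that 4 arrays were made. The pools hide the spread between mice. The labels also name a weight loss group for each control channel, whereas the study's methods describe a single control pool, which was taken here as 1 sample.

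Class II molecules are pairs of an α and a β chain that carry peptides from endosomes to the cell surface, where CD4+ T cells read them. The pair is made in the endoplasmic reticulum around the invariant chain, which is cut away in endosomes before an exchange factor, H2-DM, helps a peptide to bind. In liver the pathway is known mainly from Kupffer cells, dendritic cells and B cells rather than from hepatocytes. The coactivator Ciita turns on the genes of the class II chains, the invariant chain and H2-DM through a shared promoter module.

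Values are log2 ratios of GALP over control. The 2 arrays of a pool were averaged, and a mean ± SD is over n = 2 GALP pools. A log2 ratio of 0.58 is a 1.5-fold level. All 13 probes were well above background in the GALP and the control channel of every array, and none was saturated.

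Most of the class II genes read slightly higher after GALP, and none was called. Of the 13 member probes, 9 had a ratio above 0 on all 4 arrays and 0 had a ratio below 0 on all 4, while 11.4% of the 15724 probes with signal (those that stood well above background on every array, in 1 channel or both) were higher on all 4. With the brightest probe standing for each gene, this held for 6 of the 8 genes, against 12.8% of 11412 genes with signal. The median over the 8 genes was 0.31 (1.24-fold), with 0.30 in the greater weight loss pool and 0.34 in the less weight loss pool. The same median over all genes with signal was -0.01, and over all 41037 probes with a value it was 0. The members that stood near 0.3 were the antigen-binding chains, the invariant chain, both H2-DM chains and the protease Ctss, whereas Ciita read in opposite directions in the 2 pools.

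The thresholds came from the study's methods, a fold above 1.5 (or below 0.75) and a p-value below 0.01 from the scanner software. Asking for the fold in each pool, and for one direction and that p-value on all 4 arrays, is a strict reading chosen here. By this strict rule 0 member probes were higher and 0 were lower, beside 0.0585% and 0.132% of all probes. The highest fold of any member in any pool was 1.48. A scanner p-value under 0.01 occurred for 7 of the 13 probes, Ciita among them, each on 1 array. The share of all probes with such a p-value was not counted, so no result about the members is read from it. With limma, a linear model with moderated variances fitted to all 41037 probes and adjusted by Benjamini-Hochberg, 0 member probes passed an adjusted p of 0.05. It called 0% of all probes, so a count of 0 says little about the members. The adjusted p of the members ran from 0.374 to 1. At an unadjusted limma p under 0.05, 9 of the 13 member probes were higher, beside 4.99% of all probes and 7.84% of the probes with signal. Without A_52_P570717, an unmapped H2-Ab1 probe, it was 8 of 12. The count of member probes under this p depended on the processing. It was 3 with the ratios of the authors' series table, 8 with an intensity trend and 11 over the probes with signal. The share of all probes was not counted under these alternatives. The test has 1 residual degree of freedom and leaves out the spread of the single control pool, so every ratio shares whatever set that pool apart.

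**Figure D1:**
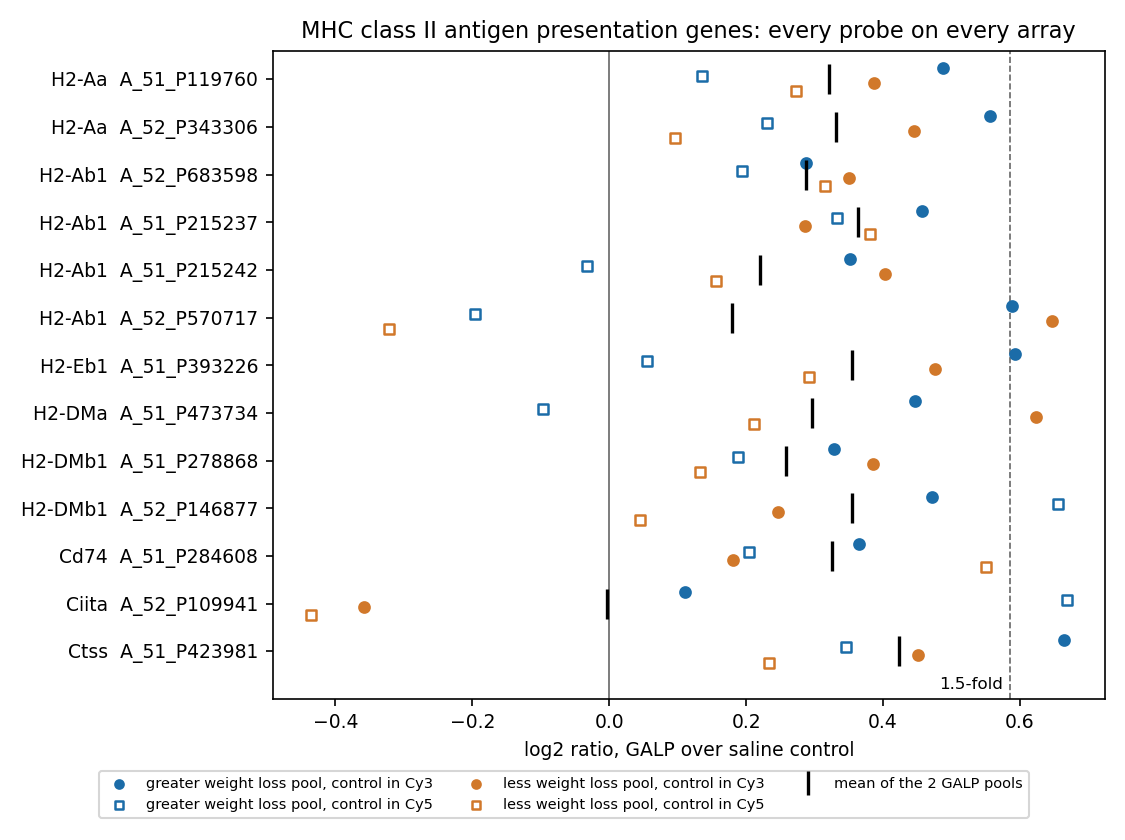
Log2 ratio of GALP over the saline control (x axis) for each of the 13 class II probes (rows) on each of the 4 arrays. Circles are arrays with the control in Cy3 and squares those with the control in Cy5, blue is the greater and orange the less weight loss pool, and the black bar is the mean of both pools. Squares lie left of circles in most rows, 9 rows lie wholly right of 0, and Ciita has its orange points left of 0 and its blue points right of it.

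The antigen-binding chains come first. H2-Aa encodes the α chain of the I-A molecule, the main class II molecule of C57BL/6 mice. Its brighter probe, A_51_P119760 (mm9 chr17:34420627-34420686, minus strand), gave 0.49 and 0.14 in the greater weight loss pool and 0.39 and 0.27 in the less weight loss pool, with the control in Cy3 and in Cy5 respectively. The processed signals were 816, 616, 731 and 673 in the GALP channels and 582, 560.4, 559.5 and 557 in the control channels. The 4 GALP signals all lay above the 4 control signals, and the mean ratio was 0.32 ± 0.01 (limma adjusted p = 0.374). The other H2-Aa probe, A_52_P343306 (mm9 chr17:34421285-34421344), gave 0.56, 0.23, 0.44 and 0.10 in the same order, a mean of 0.33 ± 0.09 (limma adjusted p = 0.427). Its signals overlapped between GALP and control, although each array read above 0. Both H2-Aa probes thus gave nearly the same mean, with folds of 1.25 and 1.26.

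H2-Ab1, the β chain of I-A, had 4 probes that did not read alike. The brightest, A_52_P683598 (mm9 chr17:34406059-34406118), gave 0.29 and 0.19 in the greater weight loss pool and 0.35 and 0.32 in the less weight loss pool. GALP signals ran from 4322 to 5353 and control signals from 3472 to 4199, without overlap, and the mean was 0.29 ± 0.07 (limma adjusted p = 0.415). A_51_P215237 (mm9 chr17:34404388-34404447) was the one member probe with replicate spots, 10 on each array. Its spots averaged 0.46 and 0.33 in the greater and 0.29 and 0.38 in the less weight loss pool, and the SD between the 8 to 10 spots kept on an array ran from 0.05 to 0.18. The mean was 0.36 ± 0.04 (limma adjusted p = 0.374), and the means of the dye orientations were close, 0.37 with the control in Cy3 and 0.36 with it in Cy5.

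The other pair of H2-Ab1 probes followed the dyes. A_51_P215242 (mm9 chr17:34401723-34401782) gave 0.35 and -0.03 in the greater and 0.40 and 0.16 in the less weight loss pool, a mean of 0.22 ± 0.08. A_52_P570717, which the files list as unmapped, is matched there to cDNAs other than the RefSeq transcript given for the other 3 probes, so whether it reads the H2-Ab1 message of these mice could not be settled. It gave 0.59 and -0.20 in the greater and 0.65 and -0.32 in the less weight loss pool. Its ratios were above 0 on both arrays with the control in Cy3 and below 0 on both with the control in Cy5, so its mean of 0.18 ± 0.02 joins readings of opposite sign, and its unadjusted limma p was under 0.05 all the same. It was also dim, with signals of 88.6 to 142. The 60-base sequences of the pair are printed here because a part of each is nearly the same. Capitals mark the 31 bases in which they overlap, 29 of which are identical.
A_51_P215242: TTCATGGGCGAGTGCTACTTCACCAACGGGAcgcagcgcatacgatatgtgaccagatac
A_52_P570717: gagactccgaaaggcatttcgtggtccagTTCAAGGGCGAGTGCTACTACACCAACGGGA
The substitutions are T5A and T20A, with the base of A_51_P215242 first, the position counted from 1 at its 5′ end, and the base of A_52_P570717 last. Their means were 0.22 and 0.18, below those of the first pair, and the brightest probe was used for the gene.

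H2-Eb1, the β chain of the second class II molecule, I-E, had 1 probe, A_51_P393226, whose 60 bases the files spread over 462 bases of mm9 (chr17:34452050-34452511), as for a probe across a splice junction. It gave 0.59 and 0.06 in the greater and 0.48 and 0.29 in the less weight loss pool, a mean of 0.35 ± 0.04 (limma adjusted p = 0.374). GALP signals were 1047, 559, 786 and 842, and control signals 694, 538, 565 and 688, so that the ranges overlapped. The mean with the control in Cy3 was 0.53 and that with the control in Cy5 was 0.17. H2-Ea, the α partner of I-E, which C57BL/6 mice are known not to transcribe, was not well above background in any channel.

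The invariant chain Cd74 holds new class II pairs together and steers them to endosomes. Its probe A_51_P284608 gave 0.36 and 0.20 in the greater and 0.18 and 0.55 in the less weight loss pool, a mean of 0.32 ± 0.06 (limma adjusted p = 0.388). GALP signals were 7196, 5344, 5623 and 6348, and control signals 5588, 4640.3, 4960.6 and 4337. All 4 ratios were above 0, and the highest control signal exceeded the lowest GALP signal. Unlike most members, Cd74 read lower on average with the control in Cy3 (0.27) than with the control in Cy5 (0.38).

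Ctss (cathepsin S), the endosomal protease that cuts the last stretch of the invariant chain, had the highest mean of the 8 genes. Its probe A_51_P423981 (mm9 chr3:95360162-95360221) gave 0.66 and 0.35 in the greater weight loss pool and 0.45 and 0.23 in the less weight loss pool. GALP signals were 16599.7, 15373, 16317.5 and 12329.7, and control signals 10476.5, 12095, 11932 and 10489. No control signal reached a GALP signal, the mean was 0.42 ± 0.11 (1.42-fold in the greater and 1.27-fold in the less weight loss pool), and the limma adjusted p was 0.430. Across the 13 probes, all GALP signals lay above all control signals for 4 (of H2-Aa, H2-Ab1, H2-DMb1 and Ctss), beside 2.48% of the probes with signal. The 4 control signals are readings of 1 pool, so this is a statement on arrays and not on mice.

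The H2-DM exchange factor is built from H2-DMa and H2-DMb1. The H2-DMb1 probe A_51_P278868 (mm9 chr17:34297109-34297168) gave 0.33 and 0.19 in the greater and 0.39 and 0.13 in the less weight loss pool. The pool means were 0.26 and 0.26, with an SD of 0.00020 that is far below the gap between dye orientations, and the limma adjusted p was 0.374. GALP signals of 757, 611, 742 and 607 all lay above control signals of 603, 537, 568 and 554. The second H2-DMb1 probe, A_52_P146877 (mm9 chr17:34294265-34294324), also lists transcripts of the near copy H2-DMb2, so that its reading is uncertain between both genes. It gave 0.47 and 0.66 in the greater and 0.25 and 0.05 in the less weight loss pool, a mean of 0.35 ± 0.30 (limma adjusted p = 0.702). The probe of H2-DMb2 itself was not well above background in any channel.

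H2-DMa, the α chain of H2-DM, gave 0.45 and -0.10 in the greater and 0.62 and 0.21 in the less weight loss pool with A_51_P473734, a probe whose 60 bases span 564 bases of mm9 (chr17:34274300-34274863). Signals were 273, 201.2, 307 and 356 for GALP and 200.4, 215, 199 and 307 for control. The reading below 0 came from the array of the greater weight loss pool with the control in Cy5. The mean was 0.30 ± 0.17 (limma adjusted p = 0.596), so the spread between pools was a large part of the difference.

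Ciita, the coactivator on which class II transcription depends, was the exception. Its probe A_52_P109941 (mm9 chr16:10526303-10526362) gave 0.11 and 0.67 in the greater weight loss pool and -0.36 and -0.44 in the less weight loss pool. GALP signals were 167, 254, 170.1 and 120.2, and control signals 155, 159.9, 218 and 163. Both arrays of the greater weight loss pool read above 0 and both arrays of the less weight loss pool read below 0. The pool means were 0.39 and -0.40, and the mean of both was -0.0037 ± 0.56 (limma adjusted p = 1). The difference of 0.79 between the pools compares with a deviation of the single arrays from their pool mean of 0.28 in the greater and 0.04 in the less weight loss pool. With 1 pool a group it allows no test, and 5.81% of the probes with signal had the same pattern of opposite directions. With normexp background correction and loess normalization in place of the processed signals, the difference was 0.24. The difference between the pools was smaller for every other gene's brightest probe, from -0.24 for H2-DMa (0.18 against 0.42) to 0.16 for Ctss (0.51 against 0.34).

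**Figure D2:**
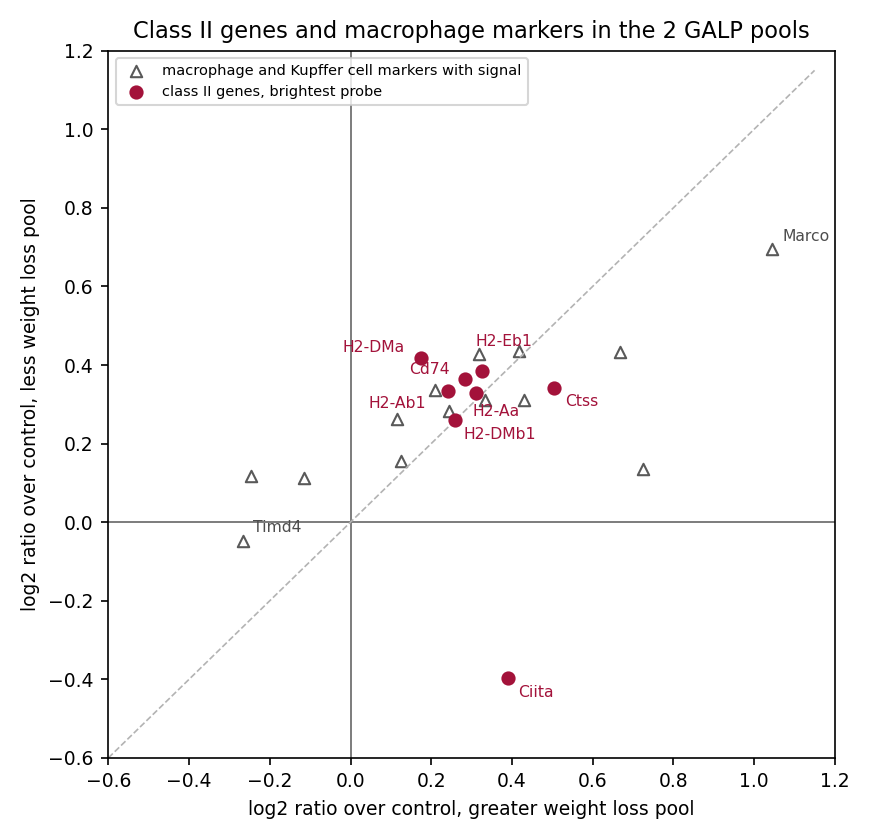
Log2 ratio over control in the greater weight loss pool (x axis) against that in the less weight loss pool (y axis). Red points are the 8 class II genes (brightest probe), open triangles the 14 macrophage and Kupffer cell markers with signal, and the dashed line marks equal ratios. Ciita lies at 0.39 and -0.40, away from the other 7 genes, which lie between 0.18 and 0.51 on the x axis and between 0.26 and 0.42 on the y axis.

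The class II median moved more with dye orientation than with the pool, with 0.30 and 0.34 in the pools. It was 0.40 on the arrays with the control in Cy3 and 0.19 on those with the control in Cy5, while the median over all genes with signal moved only from 0.02 to -0.05. Both orientations placed the median above 0. Of the single genes, 6 of 8 differed more between dye orientations and the other two, Ciita and H2-Ab1, more between pools. Averaging both orientations cancels a dye effect of equal size in the pools. The processing also mattered, and with normexp and loess the median of the 8 genes was 0.19 and that of all genes with signal -0.00282. Under this processing H2-Eb1 read 0.11, H2-DMa 0.13 and H2-Ab1 0.30.

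The 5 genes whose names begin with H2 lie together on chromosome 17. Their 9 mapped probes fall within 178 kb of mm9 (chr17:34274300-34452511), a stretch that also holds genes of the class I pathway. In it 4 other genes had signal. Tap1, a subunit of the peptide transporter, read 0.24 ± 0.01, and its partner Tap2 read 0.07 ± 0.19. The immunoproteasome subunits Psmb8 and Psmb9 read 0.16 ± 0.05 and 0.02 ± 0.15. The median of these 4 neighbours was 0.12 and 1 of them, Psmb8, was above 0 on all 4 arrays. The 9 class II probes of the stretch had means from 0.22 to 0.36, and the highest neighbour, Tap1 at 0.24, fell within that range.

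**Figure D3:**
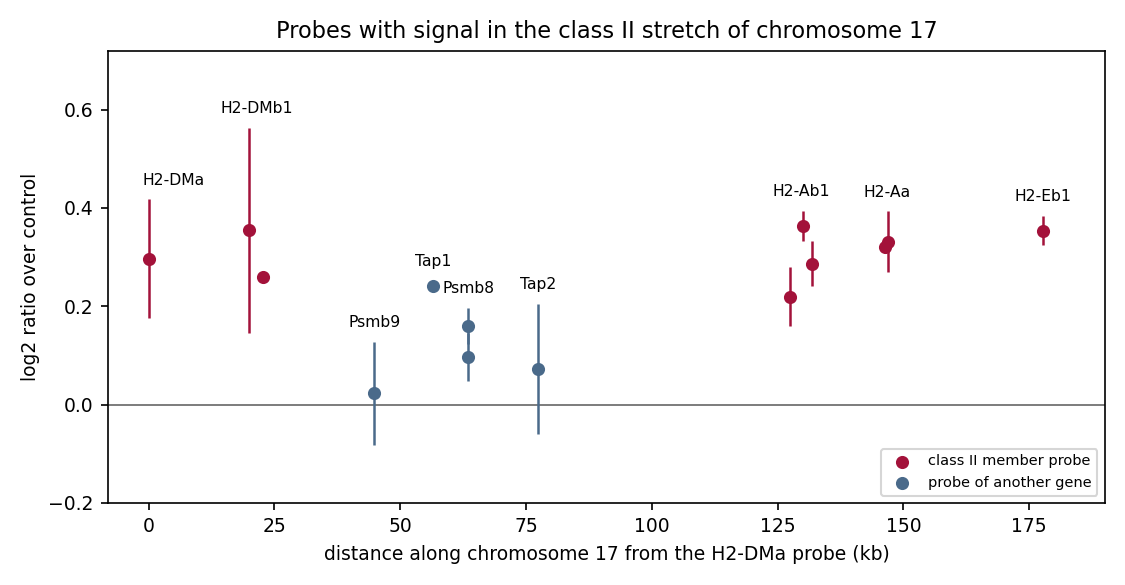
Log2 ratio over control (y axis) of the 14 probes with signal in the class II stretch of chromosome 17, by distance from the H2-DMa probe in kb (x axis). Points are the mean of both pools and vertical lines join the 2 pool values, with class II members in red and other genes in blue. The red points lie between 0.22 and 0.36 and the blue points between 0.02 and 0.24.

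The genes of the class II chains, the invariant chain and H2-DM are known to share a promoter module. The sequences upstream of the members are therefore shown for the genes that read higher together. The RefSeq promoter table (GRCm38.p6, 250 bases before to 50 after the start of a gene) held 5 of the 8 members, H2-Aa, H2-Eb1, H2-DMb1, H2-DMa and Ctss. The 4 short motifs below were searched on both strands. TGATTGG, the Y box core to which the factor NF-Y binds, was in 7.82% of 32851 promoters. GNAACNGAT, the core of the X1 box at which the RFX complex binds, was in 2.05%, and 0.189% held both. TGACGTCA, the site of CREB family factors, was in 1.79%, and GAAANNGAA, a core of the interferon response element, in 8.56%. Capitals mark the matches in the stretches below, which are on the strand of the gene.
H2-Eb1, chr17:34305756-34305832, plus strand: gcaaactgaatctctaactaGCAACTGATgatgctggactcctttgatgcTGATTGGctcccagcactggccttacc
H2-DMb1, chr17:34153077-34153154, plus strand: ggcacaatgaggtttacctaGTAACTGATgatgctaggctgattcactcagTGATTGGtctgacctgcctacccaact
H2-Aa, chr17:34287847-34287917, minus strand: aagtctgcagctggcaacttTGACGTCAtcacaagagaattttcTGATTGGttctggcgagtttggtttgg
Ctss, chr3:95526745-95526793, plus strand: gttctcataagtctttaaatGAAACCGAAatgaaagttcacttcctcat
H2-Eb1 and H2-DMb1 held the X1 core and then the Y box core, 21 and 22 bases apart, with the Y box starting 61 and 63 bases before the start of the gene. H2-Aa held the CREB site and, 16 bases on, the Y box core, which starts 50 bases before the gene. Ctss held none of these and 1 match to the interferon response element core, 21 bases before its start. Neither of the 2 H2-DMa entries held a match. A match describes letters and does not show binding.

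The factors of that module were measured too, with the interferon γ pathway that acts on Ciita. Of 17 such genes 14 had signal, with 6 above 0 and 3 below 0 on all 4 arrays, beside 12.8% and 14.5% of all genes with signal, and a median of 0.08. The highest was Irf2, an interferon regulatory factor, at 0.24 ± 0.12. The lowest was Nfyb, a subunit of NF-Y, at -0.31 ± 0.10, which was below 0 on all 4 arrays. Ifng itself, Rfx5 and Spib were not well above background in any channel. None of these genes had a called probe.

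Other genes of the class II pathway were read in the same way. Of 20 names listed, 17 were on the array and 8 had signal, with 4 above 0 and 1 below 0 on all 4 arrays and a median of 0.18. The highest was Ifi30, the thiol reductase that opens disulfide bonds of antigens in endosomes, at 0.38 ± 0.0059 with all 4 arrays above 0 (limma adjusted p = 0.374). The lowest was Sppl2a, the membrane protease that clears the remnant of the invariant chain, at -0.14 ± 0.07. The class I pathway had 14 genes with signal, a median of 0.09, and 4 above and 0 below 0 on all 4 arrays, from Pdia3 at -0.13 ± 0.06 to Tap1. The shares over all genes with signal were 12.8% above and 14.5% below 0 on all 4 arrays. Neither list had a called probe.

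**Figure D4:**
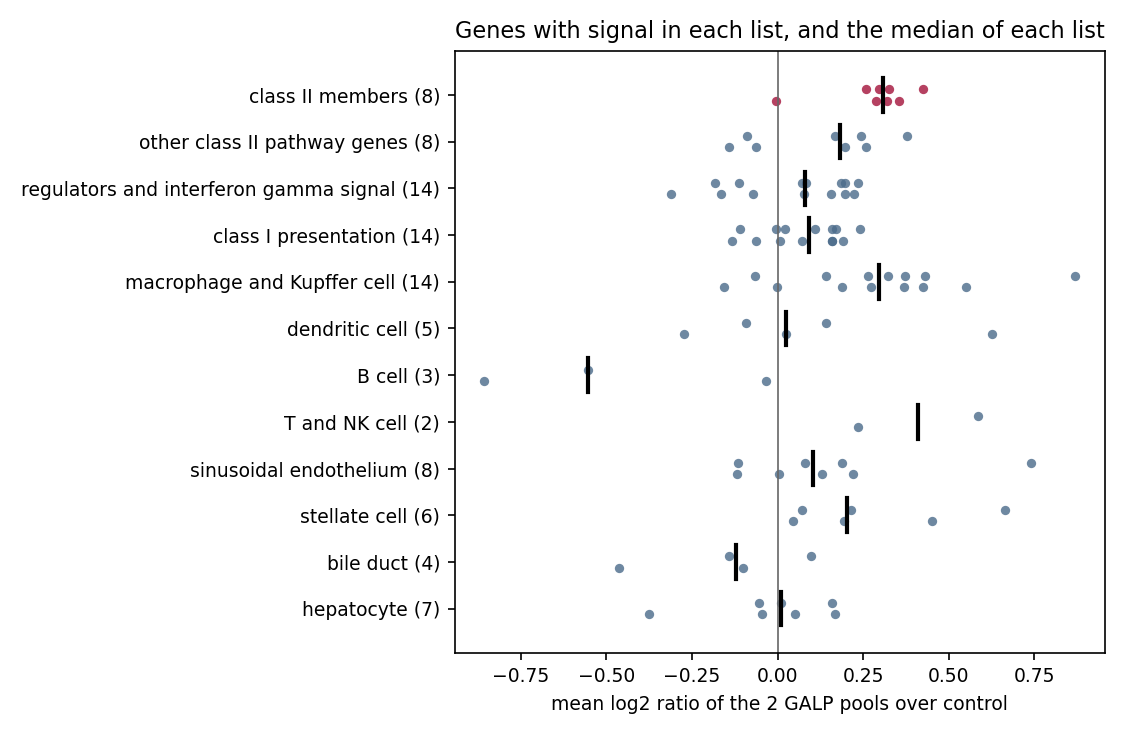
Mean log2 ratio of the 2 GALP pools over control (x axis) for the genes with signal in each list (rows, number of genes in brackets). Each point is 1 gene (brightest probe) and the black bar is the median of the list. The class II members (red, median 0.31) and the macrophage and Kupffer cell markers (median 0.30) lie highest among the lists with at least 5 genes, and hepatocyte markers lie at 0.01.

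Markers of the cells that carry class II were read beside the members. The hepatocyte list, which checks the tissue, had all 7 measured genes with signal and a median of 0.01. Of the 14 macrophage and Kupffer cell markers on the array, all had signal, 9 were above 0 and 0 below 0 on all 4 arrays, and the median was 0.30. Over all genes with signal, 12.8% were above and 14.5% below 0 on all 4 arrays. The summed signal of these 14 markers was 61947 to 73080.2 in the GALP channels and 49046.8 to 56819.8 in the control channels, and that of the 8 class II genes was 25598.5 to 31527 and 20567 to 23201. Ctss made up 47.3% to 53.6% of the class II sum in the control channels, and without it the sum was 11945.6 to 14927.3 in GALP and 10077.9 to 11649.6 in control channels. Neither class II sum nor the macrophage sum overlapped between GALP and control, although single genes such as Cd74, H2-Eb1 and H2-DMa did. Lyz2, Cd5l and Mpeg1 were the brightest macrophage markers and weigh most in the macrophage sum. The control sums are readings of 1 pool. The highest marker was Marco, a scavenger receptor of resident macrophages, at 0.87 ± 0.25, and it was the 1 gene of the list called by the strict rule. The lowest was Timd4, a phosphatidylserine receptor of resident Kupffer cells, at -0.16 ± 0.16. The means of 3 of the 14 markers were at or below 0, Timd4 and, named after their values were seen, Clec4f (-0.0013 ± 0.16), a lectin of Kupffer cells, and Vsig4 (-0.07 ± 0.26), a complement receptor of resident macrophages. The other 11 ran from 0.14 for Cd5l to 0.87 for Marco. In pooled whole liver, more cells of a type and more RNA per cell cannot be told apart, and the part of macrophages in the class II values was not tested.

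Markers of B cells, dendritic cells and T and NK cells were also read. Of 9 B cell markers on the array 3 had signal and 4, among them Cd79a and Cd22, were not well above background in any channel. The highest was Cd79b at -0.03 ± 0.04 and the lowest Ms4a1 (CD20) at -0.86 ± 0.19, below 0 on all 4 arrays (limma adjusted p = 0.413). The summed signal of all 9 was 356 to 976 in GALP and 454 to 945 in control channels. On the array of the less weight loss pool with the control in Cy5, Cd79b read 764 in GALP and 608 in control. On the other arrays it read 128 to 162. Its ratios in that pool were -0.34 with the control in Cy3 and 0.33 with it in Cy5. Of 11 dendritic cell markers 5 had signal with a median of 0.03, from Itgae at -0.27 ± 0.47 to Itgax (CD11c), which macrophages also carry, at 0.63 ± 0.29 with all 4 arrays above 0. The transcription factors Zbtb46 (-0.09 ± 0.14) and Batf3 (0.14 ± 0.04) were well above background in every channel. The markers Flt3, Clec9a, Siglech, Ccr7 and Cd209a were not well above background in any channel. The summed signal of all 11 dendritic markers was 6279 to 14421.7 in GALP and 6148 to 14179.8 in control channels. Cst3 alone gave 5700 to 13678.9 of this in GALP and 5672 to 13609.5 in control channels. Its mean of 0.03 ± 0.03 is also the median of the list, so sum and median say little about the other markers. Of 9 T and NK cell markers 2 had signal, with a median of 0.41, Nkg7 at 0.59 ± 0.31 with all 4 arrays above 0 and Cd3d at 0.23 ± 0.56. This median was 0.89 with the control in Cy3 and -0.07 with it in Cy5. Cd3d, with signals of 28 to 94, followed the dyes. It gave 1.32 and -0.06 in the greater and 0.75 and -1.07 in the less weight loss pool, with the control in Cy3 and in Cy5 respectively.

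The remaining marker lists were read in the same way. The median was 0.10 over 8 sinusoidal endothelial markers, from Kdr at -0.12 ± 0.02 to Lyve1, a hyaluronan receptor called by the strict rule, at 0.74 ± 0.05. It was 0.20 over 6 stellate cell markers, from Dcn at 0.05 ± 0.15 to Col1a1 at 0.66 ± 0.23. It was -0.12 over 4 bile duct markers, from Krt19 at -0.46 ± 0.51 to Spp1 at 0.10 ± 0.39. Hepatocyte markers ran from Tat at -0.38 ± 0.26 to Cps1 at 0.17 ± 0.17.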

How the data were processed

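Liver RNA of 2 GALP pools and 1 saline pool was compared on 4 dual-colour Agilent arrays. The deposited processed intensity of each channel was made by the authors with Agilent Feature Extraction, version 12.0.3.1 per the headers and 11.0.1.1 per the submitters' notes, after background subtraction and a LOWESS fit between dyes. The deposited log10 ratio is Cy5 over Cy3, and its deposited p-value comes from the error model of the software. The series table of the authors holds these log10 ratios as GALP over control, except at spots that the software had set to 0.

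All ratios were expressed as log2 of GALP over control. Spots marked as outliers (232 to 319 of 43379 per array) were left out, and spots of a probe and then the 2 arrays of a pool were averaged. The number of arrays limits precision. limma 3.58.1 in R 4.3.3 tested the 2 pool means against 0 over 41037 probes. Both this test and the strict rule were tried on simulated data, with unlike settings. Given changes of 3 on the log2 scale, limma recovered 0 changed probes over all probes and 157 over the probes with signal. Given changes of 1.5 and p-values made from an assumed error, the rule recovered 198 of 200. A change of 1.5 lies far above the fold that the rule asks for, so this says nothing about changes near 0.3.

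Members, gene lists and tests were chosen with earlier results of these data known. Named genes are all members and, of each other list, called genes and the highest and lowest with signal. Clec4f, Vsig4, Cd5l, Lyz2, Mpeg1, Zbtb46, Batf3 and Cst3 were named after their values were seen. So were the 4 neighbours of the class II genes and the genes at background. The genes nearest to the members' pattern were to be named only if the members' median passed 0.3 in both pools, which it did not. Probe positions are on mm9, promoters on GRCm38.p6. Python 3.11.15 was used with pandas 2.3.3, numpy 2.4.6, matplotlib 3.10.9 and scipy 1.17.1. Alternatives were normexp with an offset of 50 and loess, the series table, outlier spots kept, centring, single dye orientations, single pools, other p rules, signal filters, probe choice, an intensity trend and the pool as a random block. Metabolites were not analysed here.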

Additional observations from a re-analysis of the deposited data

Results flagged for a closer look

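Ciita (A_52_P109941) was picked out because both arrays of the greater weight loss pool read above 0 and both arrays of the less weight loss pool read below 0. The pool means were 0.39 and -0.40 on the log2 scale, a difference of 0.79, and this difference was not tested, since each group is 1 pool. No other member probe had opposite directions in the pools with both dye orientations in accord.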

How the results depend on the processing

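Neither limma nor the strict rule called a member probe under any alternative run for those counts. The median of the 8 genes (0.31) was 0.19 with normexp and loess, 0.40 with the control in Cy3 only and 0.19 with the control in Cy5 only, and 0.30 to 0.34 when 1 pool was left out. It moved by less than the spread between pools (SD 0.028) under the other alternatives. The Ciita difference between pools (0.79) was 0.24 with normexp and loess, 0.47 with the control in Cy3 only and 1.105 with the control in Cy5 only, alternatives for it being added after seeing the data. The mean of Ciita changed sign under 4 of 9 alternatives and ran from -0.40 to 0.39, while no other member gene changed sign. The cause of these shifts was not tested. Over all probes limma called 0, but 106 with the 4 arrays fitted and the pool as a random block, 95 with normexp and loess and 1 over probes with signal. The lowest adjusted p of a member was then 0.0663, 0.0573 and 0.140. In the block fit the correlation between the arrays of a pool was estimated at -0.389. A negative correlation lowers the standard error of a mean and lets the 4 arrays count for more than the pools do. The 106 calls and the adjusted p of 0.0663 are therefore not read as a result about the members. Each ratio already pairs GALP with the control on 1 array. A pairing of single mice was not possible, since the RNA was pooled and the control is 1 pool. With 1 pool left out limma has no residual degrees of freedom, so no test was made.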
